A study of Homo sapiens and Mus musculus with 12 samples.

Results

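KLF8, PKIB, CLRN1-AS1 and SLITRK6 are 4 human genes whose read counts were absent or low in WT cortical organoids and clear in every NOTCH2NL knockout (KO) organoid library. They are 4 of 60675 human gene identifiers and were picked by symbol from those very counts, so the difference between KO and WT is what chose them and is described here without a test. The words "switched on" fit KLF8, with 0 counts in all WT libraries, and nearly fit CLRN1-AS1, with 1 to 5. They are too strong for PKIB and SLITRK6, which were detected in every WT library at 12 to 33 counts.

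The study measured polyadenylated RNA in cortical organoids, balls of tissue grown from stem cells toward embryonic cortex, to ask how NOTCH2NL, a hominin-specific relative of the Notch receptor gene NOTCH2, affects cortical neurogenesis. KO organoids (n = 3) came from the CRISPR/Cas9-edited line H9_KO_E5del42 and WT organoids (n = 3) from H9_WT_E2del19, both made from the human embryonic stem cell line H9, with 5 to 10 pooled organoids of week 4 (day 28) in each library. Mouse N2NL organoids (n = 3) expressed the NOTCH2NL-Sh_T197I cDNA in 46C embryonic stem cells and mouse EV organoids (n = 3) carried the empty vector, with 16 pooled organoids of day 6 in each library. Each genotype was 1 line, so genotype and line cannot be told apart, and the p-values below measure only the spread between pools.

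Krüppel-like factors such as KLF8 are zinc-finger transcription factors that bind CACCC-containing promoter elements, and KLF8 is known to act with the CtBP corepressors. PKIB is a small inhibitor that binds the free catalytic subunit of protein kinase A (PKA), the kinase that cyclic AMP releases from its regulatory subunits and that phosphorylates CREB. SLITRK6 is a neuronal membrane protein with leucine-rich repeats; its relatives bind receptor phosphatases of the LAR group across the synapse, and loss of SLITRK6 in humans causes deafness and myopia. CLRN1-AS1 is a noncoding RNA transcribed antisense to CLRN1, the gene of clarin-1, which is mutated in a form of Usher syndrome.

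The windows in front of the genes' starts are shown because the 4 genes share the difference between KO and WT by which they were picked. Each sequence is from RefSeq (GRCh38.p14), runs 5′ to 3′ on the gene's own strand and covers 250 bases before to 50 bases after an annotated start. All 4 genes had a window in the table, and KLF8 had 4 and PKIB 3. Capitals mark TAATTA (a core of homeodomain sites such as those of DLX proteins), TGGGAA (a core of the RBPJ site used by Notch), CACCC (the KLF core) and TGACG (the part of the cyclic AMP response element that CREB binds), searched on both strands. None of the 4 motifs overlaps another in the sequences below.
KLF8, chrX:56232106-56232405, plus strand: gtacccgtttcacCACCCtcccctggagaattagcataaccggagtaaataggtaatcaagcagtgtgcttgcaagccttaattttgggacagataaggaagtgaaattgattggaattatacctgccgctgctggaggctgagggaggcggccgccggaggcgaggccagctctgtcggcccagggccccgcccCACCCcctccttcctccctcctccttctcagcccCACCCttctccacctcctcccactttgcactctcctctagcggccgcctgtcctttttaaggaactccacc
PKIB, upstream start, chr6:122471671-122471970, plus strand: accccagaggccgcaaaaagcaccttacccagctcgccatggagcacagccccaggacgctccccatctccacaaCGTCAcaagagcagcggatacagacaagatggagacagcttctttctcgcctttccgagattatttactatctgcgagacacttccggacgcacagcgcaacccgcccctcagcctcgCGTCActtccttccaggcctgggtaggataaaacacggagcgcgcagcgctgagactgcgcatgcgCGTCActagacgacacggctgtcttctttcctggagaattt
PKIB, second start, chr6:122610155-122610454, plus strand: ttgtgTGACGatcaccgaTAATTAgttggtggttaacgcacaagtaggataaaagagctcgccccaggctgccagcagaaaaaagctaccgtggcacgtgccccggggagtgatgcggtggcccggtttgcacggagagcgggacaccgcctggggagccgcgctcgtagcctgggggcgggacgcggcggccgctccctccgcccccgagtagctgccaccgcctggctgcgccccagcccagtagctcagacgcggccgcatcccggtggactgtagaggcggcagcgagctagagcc
CLRN1-AS1, chr3:150972428-150972727, plus strand: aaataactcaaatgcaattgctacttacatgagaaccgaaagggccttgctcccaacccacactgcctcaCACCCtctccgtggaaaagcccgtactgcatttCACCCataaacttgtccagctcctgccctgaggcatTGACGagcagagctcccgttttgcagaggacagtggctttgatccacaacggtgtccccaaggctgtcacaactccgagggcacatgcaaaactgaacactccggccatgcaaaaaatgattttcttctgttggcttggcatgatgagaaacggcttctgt
SLITRK6, chr13:85799370-85799669, minus strand: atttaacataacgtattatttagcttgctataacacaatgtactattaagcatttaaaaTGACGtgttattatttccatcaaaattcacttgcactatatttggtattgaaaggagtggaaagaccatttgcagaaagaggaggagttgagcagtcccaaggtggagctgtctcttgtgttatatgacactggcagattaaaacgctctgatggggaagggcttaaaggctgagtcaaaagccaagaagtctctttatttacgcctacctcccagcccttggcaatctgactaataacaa

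The printed KLF8 window held 3 CACCC matches and the CLRN1-AS1 window 2, a motif present in 59.9% of the 35116 windows of the same length. The other KLF8 windows, not printed, held 0, 2 and 2. The upstream PKIB window held 3 TGACG matches, and the second PKIB window, the CLRN1-AS1 window and the SLITRK6 window held 1 each, against 24.6% of all windows with at least 1. TAATTA, found in 4.84% of windows, occurred in the second PKIB window and in none of the other 4 printed, and also in the third PKIB window, not printed. TGGGAA, found in 24.0% of windows, occurred in none of the 5 printed and in 1 of the other KLF8 windows. The printed PKIB windows were rich in CpG dinucleotides, with 23 and 30, against a median of 14 over all windows. The third PKIB window, with 1, and the SLITRK6 window, with 4, were poor. The CLRN1-AS1 window shares its last 50 bases with the window of a CLRN1 start on the opposite strand. This overlap concerns RefSeq starts only. In GENCODE, used below for gene positions, CLRN1-AS1 starts at 150852484, and the CLRN1 start lies 120.5 kb after it. The printed CLRN1-AS1 window is therefore inside the GENCODE gene. The SLITRK6 window is also inside its GENCODE gene, which starts at 85806683 on the minus strand. Motif matches describe the letters only.

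The human libraries held 15381409 to 16382938 counts, and 16956 genes passed the filter on low counts, the 4 genes among them. KO and WT separated along the first principal component, which took 48.8% of the variance. NOTCH2NL itself was counted too rarely to be tested, with 0, 0 and 0 counts in KO 1 to 3, against 4, 5 and 3 in WT 1 to 3. Over all genes 932 differed between KO and WT (edgeR quasi-likelihood test, Benjamini-Hochberg adjusted p under 0.05), which is 5.5% of those tested. The genes higher in KO made up 2.31% and those lower 3.19%. The median log2 fold change over all genes was -0.00465.

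KLF8 (ENSG00000102349) lies on the plus strand of chromosome X at 56232421 to 56287889. It had 49, 59 and 53 counts in KO 1 to 3, against 0, 0 and 0 in WT 1 to 3. The groups do not overlap, and the KO libraries are close to one another. This is a level of 3.39 ± 0.311 CPM (counts scaled to library size, with TMM factors; SD, n = 3) in KO organoids. A count of 0 over the 3 WT libraries allows up to 0.0639 CPM, taking a floor of 3 counts over the group. The KO mean of KLF8 was 53.1-fold above that floor, a log2 bound of 5.73. Floors and fold bounds of this kind cover counting error in WT only, and take the KO mean without its error.

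PKIB (ENSG00000135549) lies on the plus strand of chromosome 6 at 122471917 to 122726373. It had 393, 403 and 366 counts in KO 1 to 3, against 23, 33 and 21 in WT 1 to 3. It was the most abundant of the 4 genes, low but present in WT, and the lowest KO library stood 11.1-fold above the highest WT library. Its mean was 24.5 ± 1.84 CPM in KO and 1.63 ± 0.332 CPM in WT (SD, n = 3 each), with log2 fold change 3.90 ± 0.19 (SE).

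CLRN1-AS1 (ENSG00000239265) lies on the plus strand of chromosome 3 at 150852484 to 151080726. It had 77, 81 and 126 counts in KO 1 to 3, against 1, 1 and 5 in WT 1 to 3. KO 3 stood above KO 1 and KO 2, and among the WT libraries WT 3 held most of the few counts. Its mean was 5.95 ± 1.52 CPM in KO and 0.152 ± 0.155 CPM in WT (SD, n = 3 each); the lowest KO library was 15.1-fold above the highest WT library. The log2 fold change was 5.24 ± 0.48 (SE), and 6.40 without WT 3. A further identifier with the same symbol, ENSG00000276055, had 0 counts in all 6 libraries. CLRN1, on the opposite strand of the same locus, had 0, 0 and 1 counts in KO and 0, 1 and 2 in WT. The libraries were strand-specific, but no source used here says whether counting was by strand.

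SLITRK6 (ENSG00000184564) lies on the minus strand of chromosome 13 at 85792787 to 85806683. It had 119, 114 and 202 counts in KO 1 to 3, against 16, 12 and 19 in WT 1 to 3. It had the smallest gap between groups of the 4 genes, with the lowest KO library 5.75-fold above the highest WT library, and KO 3 was again the highest. Its mean was 9.11 ± 2.82 CPM in KO and 1.01 ± 0.266 CPM in WT (SD, n = 3 each), with log2 fold change 3.17 ± 0.31 (SE).

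**Figure D1:**
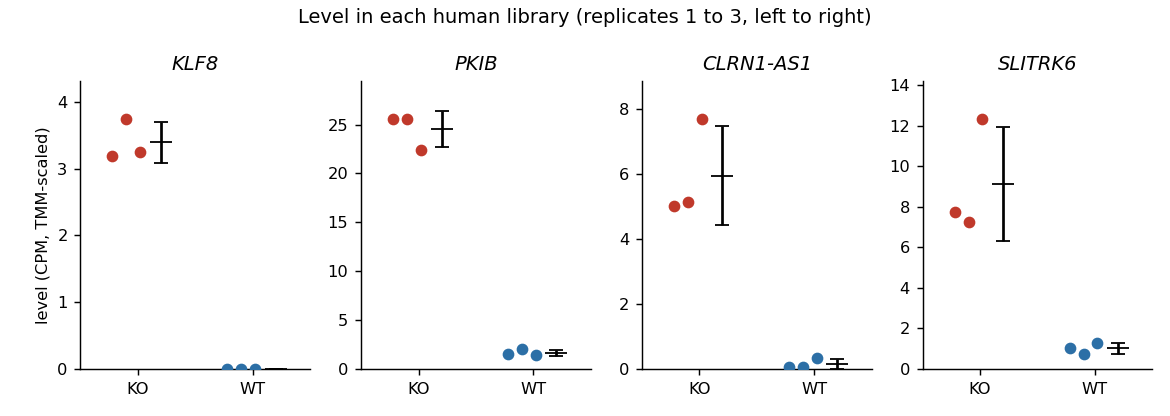
Level of each gene in CPM (TMM-scaled, linear axis from 0) in the 3 KO libraries (red, left) and the 3 WT libraries (blue, right), 1 point per library, with the mean and SD as a black bar. KLF8 is at 0 in all WT libraries, PKIB is between 1.39 and 2.01 CPM in WT, and KO 3 is the highest library for CLRN1-AS1 (7.71 CPM) and SLITRK6 (12.4 CPM).

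Per kilobase of exon the order of the levels in KO was PKIB at 7.14 ± 0.536, SLITRK6 at 2.04 ± 0.631, CLRN1-AS1 at 1.94 ± 0.497 and KLF8 at 0.376 ± 0.0344 CPM per kb (SD, n = 3 each). SLITRK6 and CLRN1-AS1 do not differ beyond their spread, while their neighbours in the order do. In WT the order was the same, with PKIB at 0.475 ± 0.0968, SLITRK6 at 0.226 ± 0.0594 and CLRN1-AS1 at 0.0498 ± 0.0507 CPM per kb, and KLF8 at 0. Even in KO the counts were modest. Without regard to length, mean CPM in KO lay at the 23.5th percentile of the genes tested for KLF8, the 30.1st for CLRN1-AS1, the 35.8th for SLITRK6 and the 54.0th for PKIB.

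The authors' deposited table gives smaller, shrunken log2 fold changes for KO over WT, in another order. They are 3.19 ± 0.19 for PKIB, 2.46 ± 0.25 for CLRN1-AS1, 2.12 ± 0.25 for KLF8 and 2.11 ± 0.23 for SLITRK6 (SE as deposited). In the authors' deposited table KLF8, with 0 counts in WT, is thus set level with SLITRK6.

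The spread over the KO libraries divided the 4 genes into pairs. KLF8 and PKIB were even, with a coefficient of variation of 9.15% and 7.51%. CLRN1-AS1 and SLITRK6 varied more, at 25.6% and 31.0%, through KO 3, which was 1.52 and 1.65 times the mean of KO 1 and KO 2. For KLF8 and PKIB that ratio was 0.935 and 0.875.

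Several genes of the ventral forebrain, where interneurons arise, also had their highest KO level in KO 3. The ratio of KO 3 to the mean of KO 1 and KO 2 was 1.61 for DLX1, 1.65 for DLX2, 1.61 for DLX5, 1.54 for DLX6 and 2.04 for ISL1, but 0.437 for the rare LHX6. A high KO 3 was not particular to these genes, as the same ratio was 1.56 for the summed ventral markers, 1.59 for thalamus and diencephalon, 1.76 for otic and placode, 1.82 for surface epithelium and 1.68 for pluripotency markers, and 0.976 for cortical progenitor markers. The summed level of 10 ventral telencephalon markers was 306, 296 and 470 CPM in KO 1 to 3, against 78.9, 136 and 111 CPM in WT 1 to 3, so the groups did not overlap. Of the 8 markers tested, 5 rose in KO (edgeR; DLX1, DLX2, DLX5, DLX6 and ISL1), against 2.31% of all genes, while GAD1 averaged 56.6 ± 9.74 CPM in KO and 61.7 ± 18.3 CPM in WT (SD, n = 3 each) and did not pass. NKX2-1, which defines the medial part of that region, had at most 1 count in any library, and LHX6 had 9, 4 and 3 counts in KO, against 1, 0 and 0 in WT. The part of these cells in the levels of the 4 genes was not tested, and in bulk RNA more cells of a type and more RNA per cell cannot be told apart.

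**Figure D2:**
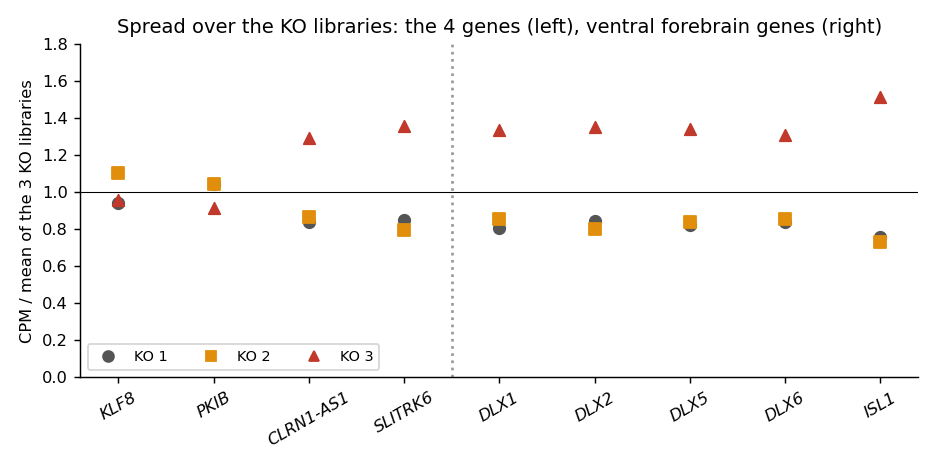
CPM in each KO library divided by the mean of the 3 KO libraries (linear axis), for the 4 genes and for 5 ventral forebrain genes. KO 3 is below or near the mean for KLF8 and PKIB, and is the highest library for CLRN1-AS1, SLITRK6, DLX1, DLX2, DLX5, DLX6 and ISL1.

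Other marker lists moved with the groups less clearly. The 9 otic and placode markers, relevant because SLITRK6 and CLRN1 are inner ear genes, summed to 65.8, 36.6 and 89.9 CPM in KO, against 90.4, 166 and 113 CPM in WT. Every KO library was lower than every WT library, KO 3 and WT 1 almost meeting. The share of single genes with that order was not counted. Of the 5 markers tested, 2 fell and 0 rose (edgeR), where 3.19% of all genes fell. The fold change was above 0 for 2 of the 5. The 8 retina and pigment epithelium markers summed to 19.0, 28.7 and 24.1 CPM in KO, against 8.49, 20.3 and 14.3 CPM in WT, and the groups overlapped. Of the 6 tested, 2 rose and 1 fell (edgeR), where 2.31% of all genes rose and 3.19% fell. The 6 choroid plexus markers ranged from 1478 to 4373 CPM in KO and from 288 to 2247 CPM in WT, and the groups overlapped. Whether any of these cells carry the 4 transcripts was not tested.

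Genes with profiles most like each of the 4 were found by the smallest Euclidean distance between mean-centred log2 CPM values over the 6 libraries. These are the libraries whose difference chose the 4 genes, so the nearest genes had to be much higher in KO too. Whether near genes share a regulator or a cell type was not tested. KLF8 was nearest to DLX2, a homeobox factor of interneuron progenitors, at a distance of 1.12, then to CLRN1-AS1 at 1.22, PKIB at 1.25, HELT at 1.38 and CRH at 1.52. PKIB was nearest to CRH, which encodes corticotropin-releasing hormone, at 0.713, then to HELT, RP11-138B4.1, SCGN and KLF8. CRH was even over the KO libraries, with 75, 69 and 77 counts in KO and 2, 5 and 5 in WT. HELT, with 35, 41 and 58 counts in KO and 1, 1 and 2 in WT, was highest in KO 3.

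CLRN1-AS1 was nearest to DLX1 at 1.08 and DLX2 at 1.09, then to CTD-2554C21.3, HELT and DLX5. The nearest profiles to SLITRK6 included PRKCH, a protein kinase C gene, at 0.734, the LIM homeobox gene ISL1 at 0.753, CTD-2089N3.1 at 0.769 and the potassium channel gene KCNA1 at 0.890. ISL1 had 137, 135 and 291 counts in KO and 18, 23 and 17 in WT, and like SLITRK6 was highest in KO 3. Among the 4 genes themselves the smallest distance was 1.22, between KLF8 and CLRN1-AS1, and the largest 2.34, between KLF8 and SLITRK6.

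Few other genes met the same description. Of all 60675 identifiers, 8 had at most 5 counts in every WT library and at least 20 in every KO library, which is 0.0132%. They included KLF8 and CLRN1-AS1, and the others were CRH, RP11-138B4.1, HELT, LINC00581, TYRP1 and CTD-2554C21.2. The reverse pattern, at most 5 counts in every KO library and at least 20 in every WT library, was met by 12 identifiers. With 0 counts required in WT, KLF8 was the only one left, against 8 in reverse. With at least 100 counts required in KO, SLITRK6 was 1 of 2 identifiers when WT counts up to 20 were allowed, and PKIB and SLITRK6 were 2 of 6 at up to 35. CLDN2, with 30, 59 and 88 counts in KO and 0, 6 and 0 in WT, and NPY, with 20, 16 and 27 in KO and 5, 0 and 2 in WT, lay just outside the limits of 5 and 20.

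In all, 2384 of the genes tested, 14.1%, had every KO library above every WT library. Ordered by the ratio of the lowest KO to the highest WT library, KLF8 had no finite ratio, CLRN1-AS1 was at place 6, PKIB at 11 and SLITRK6 at 20. Of the genes in the top 20, 6 were DLX genes, their antisense transcripts or SP9.

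**Figure D3:**
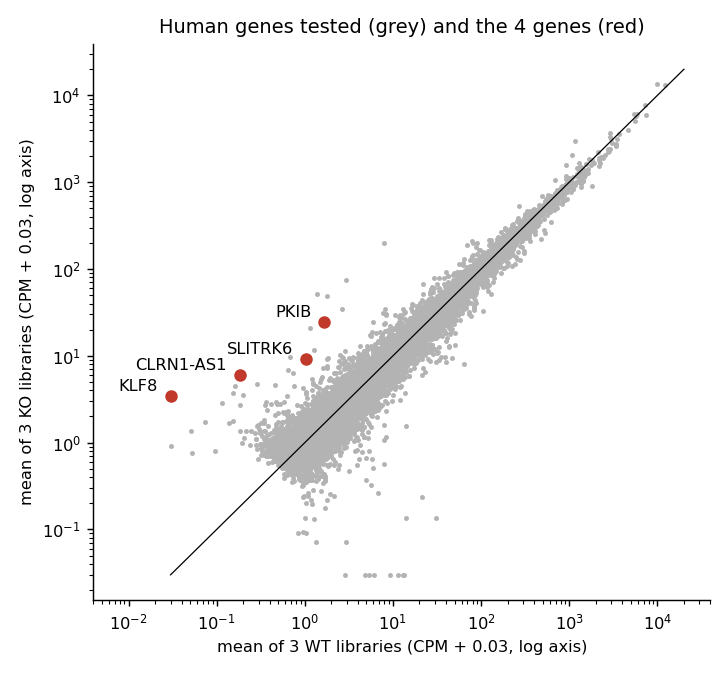
Mean level of 3 KO libraries (vertical) against 3 WT libraries (horizontal) for the 16956 genes tested, in CPM + 0.03 on log axes, with the line of equal levels. The 4 genes (red) lie above the main cloud, KLF8 at the left edge because its WT level is 0.

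Relatives and partners of each gene were then examined, beginning with transcription factors. Of 19 KLF and SP family genes tested, leaving KLF8 out, 1 rose and 2 fell, where 2.31% of all genes rose and 3.19% fell. SP9, a factor of ventral forebrain neurons, had 125, 123 and 216 counts in KO and 14, 5 and 11 in WT, a log2 fold change of 3.90 ± 0.37 (SE), and its KO 3 was also the highest library. KLF10 and KLF11, repressors induced by TGF-beta, fell by 1.22 ± 0.11 and 0.82 ± 0.11 on the log2 scale. All 3 calls held when any 1 library was left out. KLF15 (0.84 ± 0.22) and SP8 (1.23 ± 0.28) did not pass, with edgeR adjusted p = 0.0516 and 0.0535. The median log2 fold change of the family was 0.01.

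Of 11 genes that work with KLF8 or are known targets of it, none passed (edgeR), where 5.5% of all genes were called. Of the 11, 3 had an unadjusted p under 0.05, and the share of all genes under that limit was not counted. DESeq2 called 2 of them, and 1409 over all genes. The corepressors CTBP1 and CTBP2 averaged 144 ± 8.23 and 129 ± 13.96 CPM in KO, against 150 ± 17.8 and 123 ± 19.1 CPM in WT (SD, n = 3 each). The KLF8 target CCND1, a G1 cyclin, averaged 51.5 ± 4.83 CPM in KO and 70.3 ± 11.9 CPM in WT (log2 fold change -0.45 ± 0.13, edgeR adjusted p = 0.0762).

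With PKIB left out, no PKA subunit and no other PKA inhibitor was called. Of 9 tested none passed in edgeR or in DESeq2, and 0 had an unadjusted p under 0.05. The inhibitor PKIA averaged 217 ± 36.0 CPM in KO and 213 ± 26.5 CPM in WT, and PKIG averaged 40.7 ± 3.54 CPM in KO and 37.3 ± 4.84 CPM in WT (SD, n = 3 each). The catalytic subunits PRKACA and PRKACB had log2 fold changes of -0.15 ± 0.12 and 0.21 ± 0.10 (SE).

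Of 34 genes for cyclic AMP synthesis, breakdown and anchoring, none passed (edgeR), where 5.5% of all genes were called. Of the 34, 10 had an unadjusted p under 0.05, with no share over all genes to set beside it. DESeq2 called 4 of them, and 1409 over all genes. The phosphodiesterase gene PDE8B came nearest, at 4.32 ± 1.09 CPM in KO and 10.7 ± 4.81 CPM in WT (log2 fold change -1.30 ± 0.33, edgeR adjusted p = 0.0582). Of 20 CREB family genes and targets, 2 rose and 1 fell, beside the 5.5% of all genes called. SST, the neuropeptide somatostatin and also an interneuron marker, rose by 1.63 ± 0.22 on the log2 scale, and PPARGC1A, a coactivator of mitochondrial genes, by 1.16 ± 0.17. PER1, a clock gene, fell by 0.57 ± 0.12, a call that held in 2 of 6 fits with a library left out (without KO 1 and without WT 1). The immediate early genes FOS and NR4A1 averaged 22.4 ± 11.2 and 18.9 ± 2.15 CPM in KO, against 19.8 ± 11.05 and 25.5 ± 0.767 CPM in WT (SD, n = 3 each), and neither passed.

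The rest of the SLITRK family was expressed in both groups. SLITRK1 to SLITRK5 had log2 fold changes of -0.34 to 0.30 and are not among the calls, and SLITRK5 averaged 46.9 ± 9.75 CPM in KO and 44.8 ± 9.99 CPM in WT (SD, n = 3 each). Of 22 SLITRK family genes and partners tested, SLITRK6 left out, 1 rose and 3 fell, beside the 5.5% of all genes called. FLRT2, an adhesion protein with leucine-rich repeats, rose by 1.03 ± 0.16 on the log2 scale, a call lost without WT 3 (0.96, edgeR adjusted p = 0.0656). SLIT1, a guidance ligand, fell by 1.02 ± 0.20, the LAR receptor PTPRF by 0.46 ± 0.10, and LRRTM2, a postsynaptic adhesion protein, by 0.79 ± 0.17. Of the 6 fits with a library left out, SLIT1 and LRRTM2 were called in 2 and PTPRF in 1, that without WT 1.

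Of the Usher and clarin genes, 11 of 12 were found by symbol and 5 were expressed enough to be tested. Of these 5, 1 was called (edgeR), beside 5.5% of all genes. ADGRV1, a giant adhesion receptor mutated in Usher syndrome, rose to 131 ± 16.5 CPM in KO, against 77.7 ± 3.03 CPM in WT (SD, n = 3 each; log2 fold change 0.76 ± 0.10, edgeR adjusted p = 0.00334). CDH23, at 83.8 ± 29.3 CPM in KO and 113 ± 47.8 CPM in WT, did not pass. CLRN1 was at or under the floor in every library.

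Most genes within 1 Mb of the 4 genes (GENCODE 29) did not pass. Of 109 such genes 25 were tested, and 1 rose and 1 fell, against 5.5% of all genes tested. The one that rose, USP51, a ubiquitin-specific protease gene, ends 743 kb before KLF8. It had 133, 114 and 111 counts in KO, against 28, 23 and 30 in WT, a log2 fold change of 2.12 ± 0.24 (SE; edgeR adjusted p = 0.000936), called in all 6 fits with a library left out. Next to it, MAGEH1, named after its values were seen, had 409, 268 and 314 counts in KO, against 0, 0 and 50 in WT. It did not pass (log2 fold change 4.27 ± 1.16, edgeR adjusted p = 0.116), and WT 3 alone decides this. Without WT 3 its adjusted p was 0.00201, and in the other alternatives it was 0.108 to 0.310.

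Between USP51 and KLF8 lies RRAGB, a GTPase gene of amino acid sensing, at 32.4 ± 0.757 CPM in KO and 33.7 ± 1.91 CPM in WT (SD, n = 3 each; log2 fold change -0.06 ± 0.10). On the far side UBQLN2, 276 kb after KLF8, had a log2 fold change of 0.13 ± 0.08, and neither passed. Also between USP51 and KLF8, the noncoding RP13-188A5.1, too rare to be tested and named after its values were seen, had 16, 7 and 16 counts in KO, against 0, 0 and 1 in WT. It starts at 55908123 on the plus strand, inside 2 of the unprinted RefSeq windows of KLF8.

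SERINC1 begins 95 bases from the PKIB gene on the opposite strand, so the upstream PKIB window printed above covers the starts of both. SERINC1 averaged 215 ± 15.7 CPM in KO and 198 ± 9.53 CPM in WT (SD, n = 3 each; log2 fold change 0.12 ± 0.09) and did not pass. The unclassified transcript RP3-425C14.4, 32.7 kb before PKIB, fell by 0.73 ± 0.17 on the log2 scale (edgeR adjusted p = 0.0373), a call that held in 1 of 6 fits with a library left out, that without WT 1. On the other side FABP7, a lipid-binding protein gene of radial glia 53.1 kb away, averaged 159 ± 38.8 CPM in KO and 139 ± 36.9 CPM in WT and did not pass.

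Of the 10 neighbours of CLRN1-AS1 tested, with log2 fold changes of -0.16 to 0.74, none passed in edgeR or DESeq2. An unadjusted p under 0.05 was found for 3, with no share over all genes to set beside it. The nearest, MED12L, begins 4.97 kb after it on the same strand and averaged 13.6 ± 1.26 CPM in KO and 9.75 ± 1.86 CPM in WT (SD, n = 3 each; log2 fold change 0.48 ± 0.18, edgeR adjusted p = 0.142). Before it, SIAH2 had a log2 fold change of -0.16 ± 0.16. SLITRK6 had 7 annotated genes within 1 Mb, of which 6 had 0 counts in all libraries and none was tested.

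**Figure D4:**
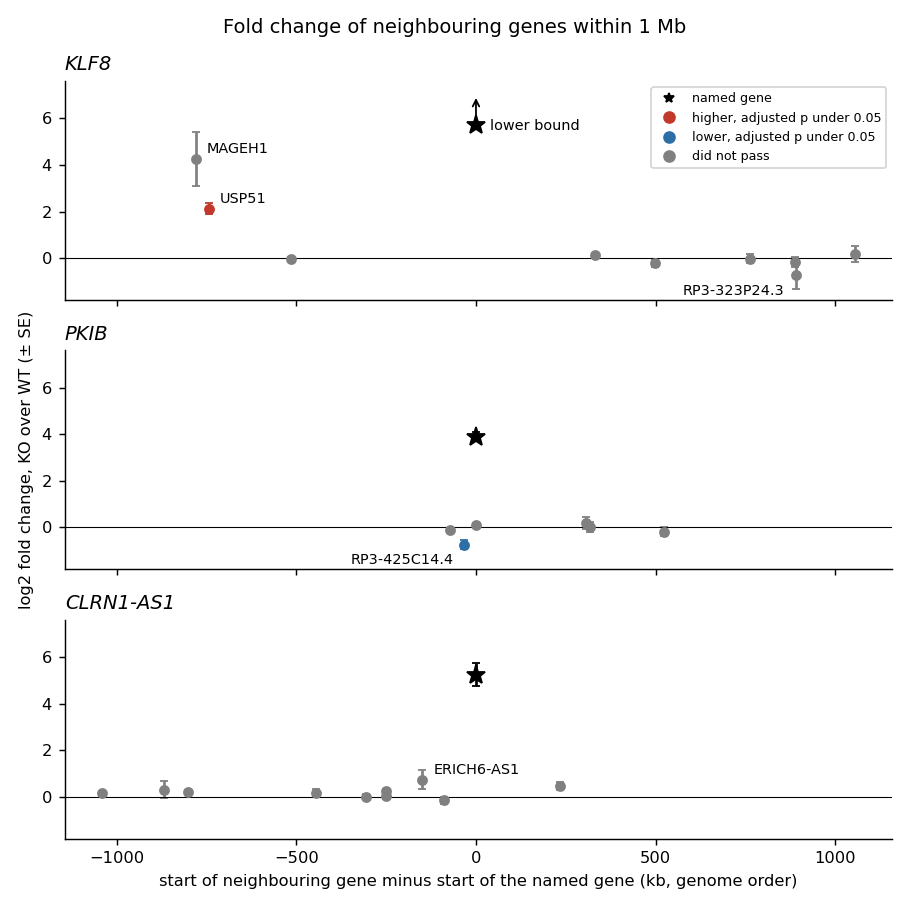
Log2 fold change, KO over WT, with its SE for the tested genes within 1 Mb of KLF8, PKIB and CLRN1-AS1, against the distance between gene starts in kb. Stars mark the named genes, with KLF8 drawn at its lower bound of 5.73; USP51 (2.12, red) is higher and RP3-425C14.4 (-0.73, blue) lower, and MAGEH1 (4.27, grey) did not pass.

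In mouse organoids the question is reversed, since NOTCH2NL was added to cells that lack it. The authors' deposited table gives normalized NOTCH2NL values of 801, 709 and 740 in N2NL 1 to 3, against 0, 0 and 0 in EV 1 to 3. Over all mouse genes 2 of 16682 passed (edgeR), which is 0.012%. Orthologs of KLF8, PKIB and SLITRK6 were found by gene description, and no mouse gene was matched to CLRN1-AS1.

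Klf8 had 255, 185 and 202 counts in N2NL 1 to 3, against 248, 215 and 238 in EV 1 to 3, and the groups overlap. It averaged 11.9 ± 0.856 CPM in N2NL and 11.8 ± 1.64 CPM in EV (SD, n = 3 each), with log2 fold change 0.02 ± 0.14 (SE; edgeR adjusted p = 0.990). Unlike human KLF8 in WT organoids, mouse Klf8 was thus detected in every library, at another stage and in another species.

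Slitrk6 had 49, 52 and 69 counts in N2NL, against 55, 135 and 92 in EV. EV 2 and EV 3 were above all N2NL libraries and EV 1 was among them. It averaged 3.205 ± 0.827 CPM in N2NL and 4.63 ± 1.71 CPM in EV (SD, n = 3 each), with log2 fold change -0.55 ± 0.28 (SE; edgeR adjusted p = 0.705). Pkib was rare, with 13, 4 and 6 counts in N2NL and 5, 10 and 8 in EV, and was left untested by the filter. The groups overlap, and a small difference was not detectable at this depth.

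**Figure D5:**
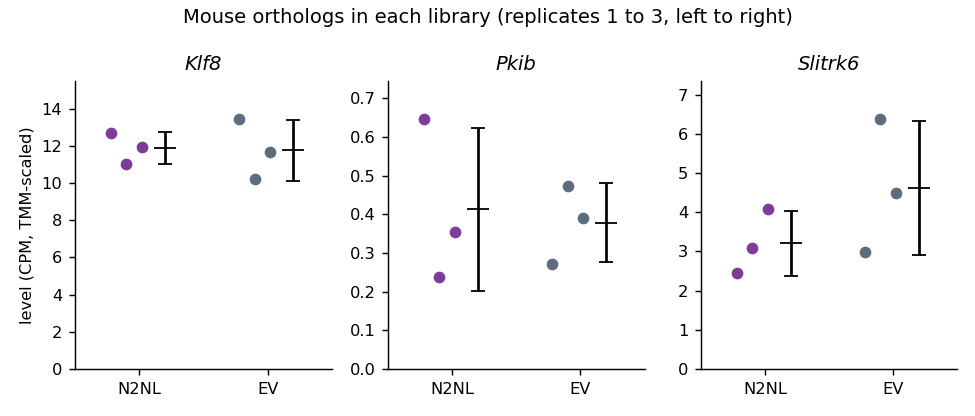
Level of the mouse orthologs in CPM (TMM-scaled, linear axis from 0) in the 3 N2NL libraries (purple, left) and the 3 EV libraries (grey, right), 1 point per library, with the mean and SD as a black bar. The groups overlap for Klf8, Pkib and Slitrk6.

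Among the mouse relatives, 1 of 20 KLF and SP genes rose. Klf2, a zinc-finger factor known from blood vessels, averaged 39.4 ± 2.61 CPM in N2NL and 25.0 ± 1.23 CPM in EV (SD, n = 3 each; log2 fold change 0.66 ± 0.09, edgeR adjusted p = 0.0368). That call was lost at least without N2NL 2, N2NL 3 or EV 3, where edgeR called 0 mouse genes. Without EV 2 edgeR called 1 mouse gene, so at most 1 of the 2 mouse calls held there. None of the 9 PKA subunits and inhibitors passed in edgeR or DESeq2, and 0 had an unadjusted p under 0.05. None of the 9 SLITRK family genes and partners passed in either. An unadjusted p under 0.05 was found for 2, with no share over all mouse genes to set beside it.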

How the data were processed

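Polyadenylated RNA from 12 organoid pools, 3 per group, was sequenced by the authors from strand-specific Ion libraries, per the labels' protocols. Tools listed in the submitters' processing notes, without roles, are HTSeq 0.6.1p1, STAR 2.4.0, Trimmomatic 0.36, DESeq2 2.11.39 and Bowtie2 2.3.3.1, with the builds hg38 and mm10. The deposited files hold raw read counts per Ensembl gene for each library. The authors' deposited comparison tables hold rounded normalized values (a score, not counts), log2 fold changes and standard errors (human) and p-values. In both human groups the normalized values under replicate 1 match raw replicate 3 and the reverse, so per-library values here come from the raw counts.

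Counts were tested with edgeR 4.0.16 in R 4.3.3 (quasi-likelihood, robust, TMM scaling, filterByExpr, Benjamini-Hochberg adjustment over all genes tested), with DESeq2 1.42.0 as an alternative. The code was checked on simulated counts. The SE of an edgeR log2 fold change is its absolute value divided by the square root of the quasi-likelihood F statistic. For the 4 genes it describes the fit only and is no test of them. CPM values use TMM-scaled library sizes, and profiles used a prior count of 2. Mouse libraries held 16781742 to 20960391 counts in genes, after summary lines that name no gene were left out. Positions are from GENCODE 29 (GRCh38).

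The 4 genes, the lists of related genes and the markers were chosen with earlier results of these data known. Genes named are the 4 genes and their orthologs, the 5 nearest profiles of each (1 of them is not reported here), every called gene of a list or neighbourhood with a few of the abundant or best-known others, the nearest neighbours, and genes meeting the same count limits. No replicates of a group agreed within counting noise, so all 3 per group were kept.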

Additional observations from a re-analysis of the deposited data

How the results depend on the processing

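The 4 genes stayed higher in KO under every alternative run, which was fixed in advance by picking them on these same counts. The alternatives were DESeq2 size factors, library size only, the DESeq2 Wald test, no filter, a replicate block, and each library left out. The fitted log2 fold change of KLF8, which depends on the prior count and is no bound, was 8.74, and 8.17 with DESeq2; CLRN1-AS1 ran from 4.87 to 6.40 with a library left out. Counts of called genes moved. In human organoids 932 were called, 1409 with DESeq2, 2155 without the filter, and 224 (without WT 3) to 1440 (without WT 1) with a library left out. In mouse organoids 2 were called, 27 with DESeq2, 117 without the filter and 0 to 17 with a library left out. The log2 fold change of mouse Klf8 (0.02) ran from -0.0744 (without EV 2; -0.0351 without N2NL 1) to 0.13 and never passed.

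Called list genes under DESeq2 and without the filter numbered 5 and 5 for KLF and SP (3 in the report), 2 and 2 for KLF8 partners, 4 and 8 for cyclic AMP genes, and 5 and 6 for CREB genes; neighbours gave 4 without the filter. With a library left out the ranges were 3 to 5 for KLF and SP, 0 to 1 for KLF8 partners, 0 to 2 for cyclic AMP genes, 0 to 6 for SLITRK genes and 1 to 4 for neighbours. The cause was not tested. Same-number correlations between groups were 0.216, -0.113 and 0.126 in human and 0.143, 0.0159 and -0.00485 in mouse. Different-number correlations ran from -0.331 to 0.277 in human and from -0.110 to 0.111 in mouse. Replicate numbers did not clearly pair the human samples. In mouse the highest correlation was between EV 1 and N2NL 1. These lay at -22.0 and -19.1 on the first principal component, the other libraries at 1.04 to 20.5. A shared effect of replicate 1 was not tested, and the main fit left replicate numbers out. With the replicate block, mouse calls were 21, KLF8 partners 2, cyclic AMP genes 2 and neighbours 1. Of 143 refits of 13 single called genes, 119 kept the call and 24 lost it, none with a change of sign. With 1 line per genotype and 3 pools each, low genes such as mouse Pkib are limited by depth.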

Other observations

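KLF8 lies on chromosome X, and the genes of that chromosome were counted after its values were seen. Of 631 chromosome X genes tested, 41 were higher in KO and 26 lower (edgeR adjusted p under 0.05), so 6.5% were higher, against 2.31% of all genes tested. On the chromosomes of the other genes the share higher was 3.06% of 850 on chromosome 6 (PKIB), 1.98% of 958 on chromosome 3 (CLRN1-AS1) and 1.56% of 321 on chromosome 13 (SLITRK6). The median log2 fold change over chromosome X was 0.00209.

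In the mouse libraries the other called gene beside Klf2 was Nnat (neuronatin), an imprinted gene of the developing brain. It had 993, 993 and 932 counts in N2NL, against 302, 539 and 436 in EV, a log2 fold change of 1.37 ± 0.14 (SE; edgeR adjusted p = 0.0143). That call was lost at least without N2NL 2, N2NL 3 or EV 3, where edgeR called 0 mouse genes. Without EV 2 edgeR called 1 mouse gene, so Klf2 and Nnat did not both stay called there.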
